A study of Mus musculus with 12 samples.

Results

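The expression profiles compared here were those of 5 recurrent tumors and of 2 samples of SCC-7 cells, 7 of the 12 arrays of the series. SCC-7 is a murine squamous cell carcinoma line. In the study the line was grown in MEM with fetal calf serum and injected into the oral cavity of nude mice, the primary tumors were removed, and the tumors that grew back were collected as recurrences 1 to 5, each after removal of the primary tumor with the same number. Ages of the mice are not given in the sources used here. All 7 samples thus descend from 1 cell line, and the comparison sets the line in culture against the same line after growth, removal and regrowth in a mouse. The samples of each group were taken by their labels alone, as all samples labelled as recurrent tumor and all labelled as SCC-7. No measured value was used to place a sample. The choice of these groups and of the gene lists below was made with earlier results of these data known. The primary tumors were left out. Biotin-labelled cRNA of each sample was measured on an Illumina mouse WG-6 v2 array, which reports 1 mean bead intensity per probe. Levels below are log2 intensities after background correction and quantile normalization of the 7 arrays.

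A tumor in the floor of the mouth is a mixture of carcinoma cells and host tissue. Blood vessels, macrophages, mast cells and fibroblasts enter the tumor bed, and gland, muscle, fat and nerve lie beside it. A cultured line has none of these, and it grows with ample serum, oxygen and nutrients. The nude mouse lacks a thymus and forms few mature T cells, while its macrophages, mast cells, B cells and natural killer cells remain. In whole tumor RNA, more cells of a type and more RNA of a gene per cell cannot be told apart.

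On each array, 13711 to 16758 probes were detected, that is, brighter than the negative controls at a one-sided p under 0.01. The SCC-7 arrays had the fewest, 13711 and 13868, and the recurrences 15406 to 16758. The profiles of the SCC-7 arrays correlated at 0.9953 with each other, those of the recurrences at 0.9376 to 0.9758 among themselves, and a recurrence with an SCC-7 array at 0.8193 to 0.8867. These are correlations across the 17252 probes tested below, on arrays that share one normalization. The median standard deviation of a gene among the 5 recurrences was 0.29 log2 units. Nothing in the sources says that the 2 SCC-7 samples were separate cultures, so the p-values measure only the spread between these samples. Recurrence 1 stood apart: of 16 kept salivary gland genes, 16 were detected in each of the other 4 recurrences and 6 in recurrence 1. The SCC-7 arrays also carried transcripts that their label does not lead to. Hba-a1, a haemoglobin chain, lay at 8.46 and 8.53 on them, Lyz2, a lysozyme of macrophages, at 9.02 and 9.03, and Bpifa2, a salivary secretory protein, at 11.14 and 11.23. Of the kept members of each list below, 10 and 11 of 18 macrophage genes, 3 and 3 of 6 erythroid genes and 8 and 7 of 16 salivary genes were detected on the first and second SCC-7 array. How these transcripts came to be in the SCC-7 samples was not tested.

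Of 45135 probes, 17252 were detected on at least 2 of the 7 arrays and were tested with limma. In recurrent tumors, 1692 probes (9.81%) were higher and 1206 (6.99%) were lower than in SCC-7 cells, at a Benjamini-Hochberg adjusted p under 0.05 and a difference of at least 2-fold. A probe or gene that met both criteria is termed called below. By named genes, each read from its brightest kept probe, 1142 of 9803 (11.6%) were higher and 642 (6.55%) were lower. The higher genes differed by more, since a difference of 8-fold or over was seen for 319 genes upward and for 16 downward. Of the 1142 higher genes, 658 were detected on 0 of the 2 SCC-7 arrays and 436 on all 7 arrays. Of the 642 lower genes, 34 were detected in 0 of the 5 recurrences and 491 on all 7 arrays. Most of the higher genes were thus not detected in cultured cells, whereas most of the lower genes were still measured in the tumors. Leaving out recurrence 1 gave 1767 probes higher and 1316 lower. With the first or the second SCC-7 array left out, 972 or 1005 probes were higher and 338 or 346 lower. Higher calls were 58.4% of all calls, 80.2% with median scaling of all probes and 48.5% with median scaling of the kept probes. The median difference of all kept probes was -0.14 log2 units, 0.13 with median scaling and -0.23 with scaling of the kept probes. The differences given below are plain differences of group means, from which this median was not subtracted. The shares of 11.6% higher and 6.55% lower among all named genes are the background for the counts of list members. Of these 9803 genes, 7258 were detected on all 7 arrays. A list member detected on neither SCC-7 array was kept only through the tumors, which favors a higher call, so the background is not matched for such members. The groups did not overlap for 5580 of the 9803 genes, among them 1141 of the 1142 called higher and all 642 called lower.

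**Figure D1:**
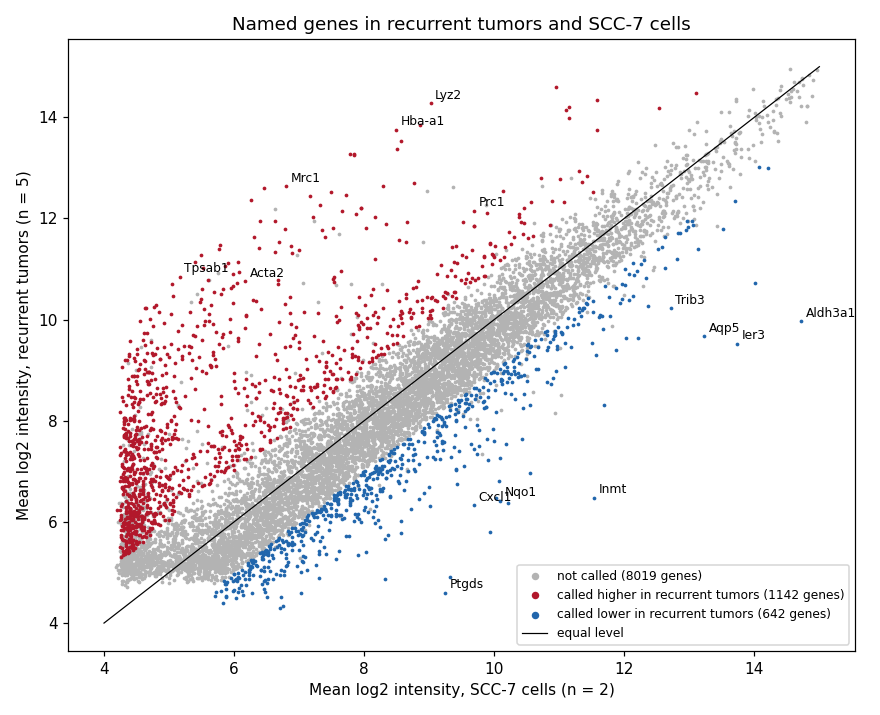
Mean log2 intensity of each named gene in SCC-7 cells (horizontal axis, n = 2) and in recurrent tumors (vertical axis, n = 5), with called genes in color. Red points crowd the left edge, where SCC-7 cells are near background, and blue points lie along the lower side of the diagonal of equal level.

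The 15 genes with the largest excess in recurrent tumors are given first. Ms4a6d, a membrane protein of macrophages, lay at 12.64, 12.84, 13.10, 11.94 and 12.47 in recurrences 1 to 5 and at 6.54 and 6.38 in SCC-7 cells, a log2 difference of 6.14 (standard error 0.29, adjusted p = 7.3e-06). Mrc1, the mannose receptor of macrophages, lay at 12.62, 12.59, 12.97, 12.47 and 12.50 against 6.93 and 6.67, a log2 difference of 5.83 (standard error 0.19, adjusted p = 1.8e-06). In both genes the lowest tumor exceeded the higher SCC-7 array by more than 5 log2 units, and the tumors were close to each other. H2-Ea and H2-Eb1, which encode chains of MHC class II molecules, had log2 differences of 6.11 and 5.78. A further chain, H2-Ab1, was not well above background on either SCC-7 array, and recurrent tumors were at least 45.6-fold higher. Such bounds set the mean of the tumors against the detection floor of the SCC-7 arrays, or against the probe's own signal where that is higher. Fcgr2b, the inhibitory Fc receptor, and F13a1, the A subunit of coagulation factor XIII that macrophages produce, differed by 5.69 and 5.55. Ctsh, Ifi207 and C1qc differed by 5.61, 5.49 and 5.48, and Tpsab1, Ednrb, Gpx3, Cd72 and Ms4a7 completed the 15. Ednrb is an endothelin receptor, Ctsh a lysosomal protease, Gpx3 a secreted glutathione peroxidase, and Cd72 a receptor of B cells and some myeloid cells. Recurrent tumors were at least 33.7-fold higher for Ednrb, at least 24.2-fold for Gpx3, at least 24.3-fold for Cd72 and at least 25.2-fold for Ms4a7, which were not well above background in SCC-7 cells. Ifi207 belongs to a family of similar interferon-inducible genes whose transcripts its probe may share.

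Among the genes with the largest excess in SCC-7 cells were enzymes and secreted factors. Inmt, a methyltransferase of indole amines, had the largest difference and varied widely among the recurrences: it lay at 5.32, 8.84, 8.28, 4.41 and 5.53 in recurrences 1 to 5 and at 11.56 and 11.52 in SCC-7 cells, a log2 difference of -5.06 (standard error 1.16, adjusted p = 0.014). Aldh3a1, an aldehyde dehydrogenase, lay at 10.71, 11.01, 10.43, 7.42 and 10.27 against 14.67 and 14.77. Every recurrence was below both SCC-7 arrays, recurrence 4 by the most. Ptgds, which makes prostaglandin D2, was not well above background in any recurrence and lay at 9.37 and 9.12 in SCC-7 cells, so that it was at least 16.5-fold lower in recurrent tumors. Wfdc3, a small secreted protein of the protease inhibitor type, was at least 8.71-fold lower. Cyp2c23, a cytochrome P450 that oxidizes arachidonic acid, differed by -4.42 and was detected in 1 of 5 recurrences. Cdsn, the adhesion protein corneodesmosin, and Cdh26, a cadherin, differed by -4.12 and -3.39, and Gpnmb, a glycoprotein of the melanosome and lysosome, by -3.27. Prl2c2, Prl2c3 and Prl2c4, the growth-associated proliferins, differed by -3.84, -3.58 and -3.56. Of the recurrences, number 5 had the highest level of all 3, with 8.59 for Prl2c2 against 5.25 to 6.24 in the others. The proliferins are near-identical copies whose probes may share transcripts. Without either SCC-7 array, Inmt, Aldh3a1, Gpnmb and the 3 proliferins kept their direction and missed the adjusted p of 0.05.

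Macrophage genes were higher as a group, and their mean level was even over the tumors. Of 21 listed genes, 18 were kept and all 18 were called higher, against 11.6% of all named genes, with a median log2 difference of 4.43 (3.73 with undetected genes at their bound, and -0.085 over all named genes). Of the 18, 7 were detected on neither SCC-7 array and were kept only through the tumors. The mean level of the list was 10.41, 10.33, 10.52, 10.27 and 10.38 in recurrences 1 to 5 and 6.311 and 6.299 in SCC-7 cells. The 3 chains of complement C1q, which macrophages secrete, behaved alike. C1qa lay at 11.73, 11.62, 11.80, 11.47 and 11.54 in the recurrences and at 6.32 and 6.31 in SCC-7 cells, and C1qa, C1qb and C1qc differed by 5.32, 5.42 and 5.48. Lyz2 differed by 5.25 and Csf1r, the receptor for the macrophage growth factor, by 3.90 (standard error 0.31). Some members were less even than the mean. Vsig4, a complement receptor of resident macrophages, had the widest spread, at 7.41, 10.88, 7.71, 9.51 and 9.53 against 4.64 and 4.41. Aif1, Tyrobp and Cd163 had standard deviations of 0.92, 0.88 and 0.74 among the recurrences, where the median over all named genes was 0.29. Vsig4 was at least 10.4-fold higher (adjusted p = 0.0069) and missed the threshold without either SCC-7 array. Without any one recurrence all 18 genes remained called, and without the first or second SCC-7 array 16 or 17 did.

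MHC class II genes, by which macrophages and other presenting cells display antigen, were mostly higher in recurrent tumors, at levels that were unequal among them. Of 8 kept genes, 6 were called higher (11.6% of all named genes were) and 0 lower, with a median log2 difference of 2.93. The mean of the list was 10.26, 8.38, 10.99, 8.77 and 9.63 in recurrences 1 to 5 and 6.35 and 6.40 in SCC-7 cells. H2-Ab1 followed this order, at 11.93, 9.79, 12.79, 10.19 and 11.02 against 5.45 and 5.36. Recurrences 1 and 3 were the highest and recurrence 2 the lowest. Cd74, the invariant chain, differed by 4.74 and H2-DMa, which loads peptide, by 3.31. H2-Oa, an inhibitor of loading, was not called, at -0.90. Without recurrence 1, 4 of the class II genes were called, as without either SCC-7 array. Of 14 kept genes of MHC class I presentation and the immunoproteasome, 3 were called higher, beside 11.6% of all named genes. H2-Q6, H2-K1 and H2-T23 were higher by 3.60, 3.28 and 2.22, whereas H2-D1 differed by 0.23 and B2m by -0.07. Class I heavy chains are similar to each other and differ between mouse strains, so probes may read more than 1 of them or read alleles unequally. Complement genes outside C1q had 5 of 10 kept members higher and 1 lower, beside 11.6% and 6.55% of all named genes. Serping1, the C1 inhibitor, was at least 9.53-fold higher. Cfp, properdin, and C4b differed by 4.34 and 4.04. C1s1, the C1s protease, was not well above background in any recurrence and was at least 2.35-fold lower.

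Chemokine ligands were largely higher in recurrent tumors, and 1 was lower. Of 20 kept genes, 14 were called higher and 1 lower, beside 11.6% and 6.55% of all named genes. The median log2 difference was 2.73 (2.08 with bounds). Of the 20, 9 were detected on neither SCC-7 array and were kept only through the tumors. Ccl8, a monocyte attractant, lay at 13.23, 10.96, 12.90, 10.38 and 11.44 in recurrences 1 to 5 and at 6.64 and 6.94 in SCC-7 cells. It was highest in recurrences 1 and 3, as were the class II genes. Cxcl16 and Ccl12 differed by 4.65 and 4.705. Cxcl9, an attractant of T cells that interferon gamma induces, was not well above background in SCC-7 cells, and recurrent tumors were at least 9.48-fold higher. Cxcl1, a neutrophil attractant, ran the other way: it lay at 5.71, 5.20, 5.56, 7.66 and 7.52 against 9.68 and 9.70, a log2 difference of -3.36 (standard error 0.70, adjusted p = 0.0094). Recurrences 4 and 5 stood nearer to the cultured cells. Without the first or the second SCC-7 array, 9 chemokines were called higher and Cxcl1 missed the threshold. Of 16 neutrophil genes, 5 were kept and 1 was called higher, beside 11.6% of all named genes. It was Csf3r, the receptor for granulocyte colony-stimulating factor, which was at least 2.11-fold higher. S100a8, an abundant neutrophil protein, lay at 6.79, 6.41, 6.53, 7.26 and 9.87 in the recurrences and at 6.52 and 6.40 in SCC-7 cells, so recurrence 5 was the highest and the others were close to the line.

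Mast cell genes were higher in recurrent tumors and differed strongly between them. Of 9 kept genes, 7 were called higher, against 11.6% of all named genes, and 0 lower. Of the 9, 8 were detected on neither SCC-7 array and were kept only through the tumors. Tpsab1, a tryptase of mast cell granules, lay at 10.75, 11.85, 11.996, 9.52 and 10.13 in recurrences 1 to 5 and at 5.19 and 5.15 in SCC-7 cells, at least 37.2-fold higher (adjusted p = 0.0006). Tpsb2, Cpa3 and Mcpt4, further granule proteases, were at least 12.5-fold, 11.9-fold and 9.14-fold higher. The order of the tumors was shared: of the 9 genes, 8 were highest in recurrence 3 and 7 were lowest in recurrence 4. The list averaged 8.56, 9.28, 9.97, 7.28 and 8.03 in the recurrences against 5.02 and 5.04. Without either SCC-7 array, 4 of the genes were called.

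Endothelial genes were higher, and the mean of the list was nearly even over the tumors. Some members were less even: Cdh5, Vwf and Cldn5 had standard deviations of 0.89, 0.74 and 0.60 among the recurrences, where the median over all named genes was 0.29. Of 18 kept genes, 16 were called higher and 0 lower, where 11.6% of all named genes were higher. Of the 18, 13 were detected on neither SCC-7 array and were kept only through the tumors. Emcn, a sialoprotein of capillary and venous endothelium, lay at 9.27, 8.97, 8.69, 8.68 and 8.85 in recurrences 1 to 5 and at 4.45 and 4.49 in SCC-7 cells. It was at least 9.57-fold higher. Egfl7, a secreted factor of vessels, differed by 4.49, Esam, an adhesion molecule of the endothelial junction, by 4.45, and Plvap, which forms the diaphragms of fenestrae, by 4.42. The list mean spanned 7.75 to 8.21 in the recurrences against 4.95 and 4.96. Kdr, the main VEGF receptor, was not among them: it lay at 4.90 to 5.38 in the recurrences and at 5.84 and 5.78 in SCC-7 cells, and Eng was not called either. Of the signal that attracts vessels, Vegfa lay at 8.87, 8.20, 7.80, 8.67 and 9.13 in the recurrences and at 10.36 and 10.56 in SCC-7 cells, a log2 difference of -1.93 (standard error 0.34, adjusted p = 0.0051). Vegfa was thus lower in every tumor than in culture, while transcripts of the vessels themselves were higher. With 1 SCC-7 array left out, 14 or 15 endothelial genes were called and Vegfa was not.

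**Figure D2:**
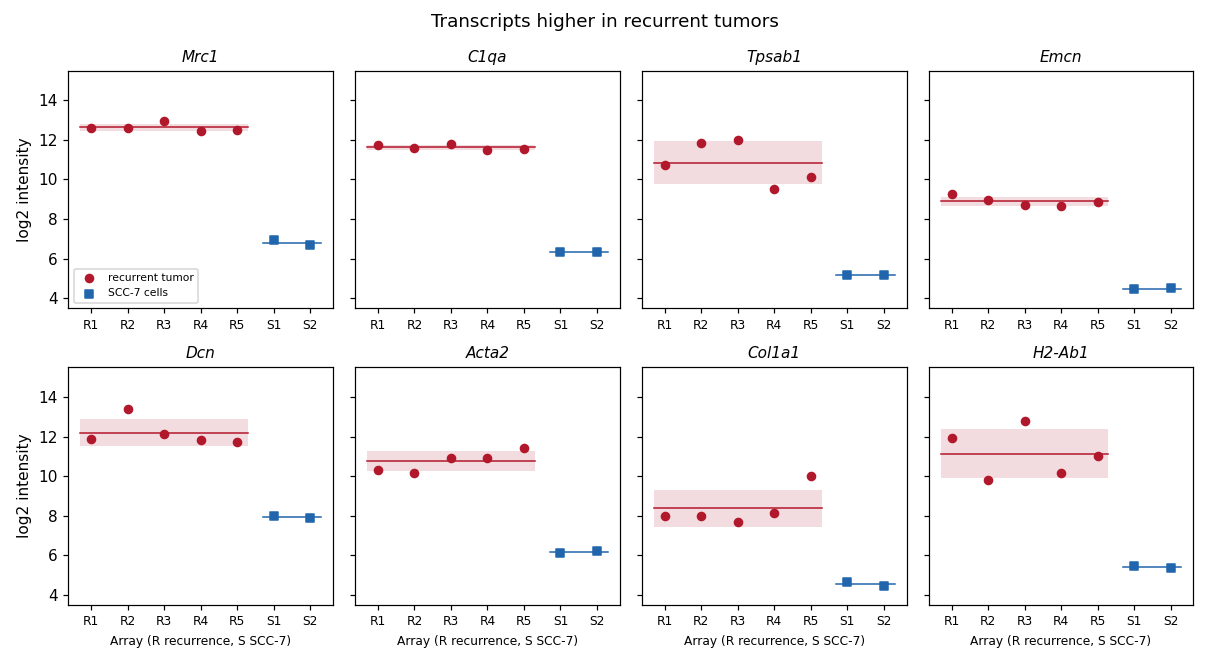
Log2 intensity (vertical axis) of 8 genes on each array (horizontal axis), with recurrent tumors as circles, SCC-7 cells as squares, lines at the group means and a band of 1 standard deviation over the 5 recurrences. Mrc1, C1qa and Emcn are even over the tumors, whereas Tpsab1, Col1a1 and H2-Ab1 vary.

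Fibroblast genes were higher, though less uniformly. Of 12 kept genes, 9 were called higher, against 11.6% of all named genes, and 0 lower. The median log2 difference was 2.06 (1.72 with bounds). Dcn, the matrix proteoglycan decorin, lay at 11.86, 13.38, 12.15, 11.84 and 11.75 in recurrences 1 to 5 and at 8.01 and 7.88 in SCC-7 cells, a log2 difference of 4.25 (standard error 0.42, adjusted p = 0.00029). Thy1, a surface glycoprotein of fibroblasts, differed by 4.23. Pi16 differed by 2.60, and Lum, the proteoglycan lumican, was at least 3.58-fold higher. Pdgfra, a receptor that usually marks fibroblasts, was equally high in the line itself: it lay at 8.73 to 10.02 in the recurrences and at 9.74 and 9.84 in SCC-7 cells. Its log2 difference was -0.50 and was not called. Without either SCC-7 array, 2 fibroblast genes were called. Among smooth muscle and pericyte genes, 4 of 11 kept were higher, beside 11.6% of all named genes. Acta2, smooth muscle actin, led them, at 10.33, 10.18, 10.93, 10.91 and 11.43 against 6.13 and 6.21, a log2 difference of 4.59 (standard error 0.33, adjusted p = 5e-05). Mcam, an adhesion molecule of pericytes and vessels, was at least 4.26-fold higher, and Myl9 and Rgs5 were at least 1.28-fold and 1.22-fold higher. Tpm2 and Mylk, which are contractile genes of the same list, lay at like levels in both groups.

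Of the extracellular matrix genes, some were as high in the cultured line as in the tumors and others were far higher in the tumors. Of 15 kept collagen chain genes, 7 were called higher, against 11.6% of all named genes, and 0 lower. Col1a1, the main fibrillar chain, lay at 7.97, 7.999, 7.69, 8.13 and 10.03 in recurrences 1 to 5 and at 4.63 and 4.44 in SCC-7 cells, at least 6.65-fold higher, with recurrence 5 the highest. Col6a1 and Col18a1 differed by 3.54 and 2.91, and Col6a2 was at least 4.48-fold higher. Col5a1, by contrast, was as high in culture as in the tumors, at 10.76 to 12.42 in the recurrences and 12.32 and 12.11 in SCC-7 cells, with a log2 difference of -0.66 that was not called. Among 13 kept matrix glycoproteins, 6 were higher, against 11.6% of all named genes, and 0 lower. Of the 13, 8 were detected on neither SCC-7 array and were kept only through the tumors. Fn1, fibronectin, lay at 8.31, 8.83, 8.70, 10.89 and 10.86 and was not well above background in SCC-7 cells, at least 14.8-fold higher (adjusted p = 0.0039). Thbs2, Nid1 and Lox, the collagen crosslinking enzyme, were at least 3.92-fold, 3.51-fold and 3.31-fold higher. Of 15 kept proteases and inhibitors, 4 were higher and 3 lower, beside 11.6% and 6.55% of all named genes. Plau, the urokinase, lay at 10.79, 10.84, 10.72, 11.67 and 12.54 against 6.82 and 6.95, a log2 difference of 4.43 (standard error 0.48). Ctsk was at least 3.97-fold higher, and Timp3 and Mmp9 differed by 2.29 and 2.22. Mmp11, Adamts1 and Mmp13 were lower, by -2.07, -2.01 and -1.40. Without the first or second SCC-7 array, 2 or 3 matrix glycoproteins and 5 collagen genes were called higher, and 2 or 1 proteases or inhibitors.

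Transcripts of lymphoid cells and of red blood cells were also seen. Of 8 kept T cell and natural killer cell genes, 5 were called higher, against 11.6% of all named genes. Of the 8, 6 were detected on neither SCC-7 array and were kept only through the tumors. Nkg7, a granule protein of cytotoxic cells, lay at 9.31, 8.44, 9.31, 8.90 and 7.96 in recurrences 1 to 5 and at 5.97 and 6.02 in SCC-7 cells, a log2 difference of 2.79. Klrd1, a receptor of natural killer cells, Cd3g and Zap70 were at least 1.84-fold, 1.52-fold and 1.46-fold higher. Cd3e, Cd3d and Prf1 were not called. The probes of Cd4, Cd8a, Gzmb, Klrb1c, Ncr1 and Il2rb were not kept. Of 5 kept B cell genes, Cd79b, part of the B cell receptor, was at least 3.11-fold and Cd22 at least 1.45-fold higher, whereas Blnk, an adaptor of that receptor, was lower by a log2 difference of -1.59 and lay at 8.99 and 9.23 in SCC-7 cells. Mzb1 and Pou2af1 were not called (adjusted p = 0.22 and 0.19) and were each detected in 3 of 5 recurrences. The probes of Ms4a1, Pax5 and Jchain were not kept. When either SCC-7 array was left out, 2 T cell and natural killer cell genes and 0 B cell genes were called higher. Of 6 kept erythroid genes, 5 were called higher, against 11.6% of all named genes, and haemoglobin was high in all tumors. Hba-a1 lay at 13.35 to 14.11 in the recurrences against 8.46 and 8.53, a log2 difference of 5.26 (standard error 0.23, adjusted p = 4.8e-06). Hbb-bt and Hbb-bs, paralogs that may share probes, differed by 4.96 and 4.87. Alas2, the erythroid enzyme of haem synthesis, was at least 3.93-fold higher.

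Most of the listed markers of squamous epithelium were not kept. Of 22 listed keratin and squamous genes, 8 were kept, 0 were called higher and 1 was called lower, beside 11.6% and 6.55% of all named genes. Krt5, Krt6a, Krt6b, Krt16 and Ivl, which define stratified squamous epithelium, were each detected on fewer than 2 of the 7 arrays and were not kept. Krt8, a keratin of simple epithelium, was well expressed, at 9.42, 10.26, 10.15, 11.20 and 11.66 in recurrences 1 to 5 and at 10.40 and 10.38 in SCC-7 cells. Krt14, the basal keratin, lay at 4.46, 7.03, 7.82, 10.33 and 6.36 against 7.22 and 7.32, so the tumors spanned nearly 6 log2 units around the level of the line. Trp63, which encodes the basal transcription factor p63, was detected in 0 of 5 recurrences and on both SCC-7 arrays, at least 1.87-fold lower. Without either SCC-7 array it was not called. Of 8 kept genes of epithelial junctions, 0 were called by limma, 3 had an unadjusted p under 0.05, 0 were called by the methods' t-test, and 2 were called higher without recurrence 1. Cdh1, E-cadherin, lay at 4.96, 6.02, 6.75, 5.48 and 5.78 against 5.38 and 5.06. It was detected in 4 of 5 recurrences and on neither SCC-7 array, and was highest in recurrence 3. Its difference was not called (adjusted p = 0.31). Esrp1, a splicing regulator of epithelia, lay at 4.54, 9.36, 10.38, 7.22 and 7.22 against 4.44 and 4.62. Esrp1 was at background in recurrence 1 and in the line. It was not called with all arrays (adjusted p = 0.097) and was called without recurrence 1 (adjusted p = 0.017). Recurrence 1 was set aside there after its low level was seen, so the latter p-value is not an independent test. The salivary gland transcripts described below moved in the same way over the recurrences, and their part in this result was not tested.

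Genes of mesenchymal state were high in culture already. Vim, vimentin, lay at 13.38 to 14.36 in the recurrences and at 13.17 and 13.08 in SCC-7 cells, a log2 difference of 0.79 that was not called. Of 10 kept genes of this list, 2 were higher and 1 lower, beside 11.6% and 6.55% of all named genes. Zeb2, a repressor of epithelial genes, and Tgfbr2, a receptor for TGF-beta, were higher by 1.75 and 1.66. Twist2 was lower by 1.19 on the log2 scale. Snai1, Snai2, Twist1 and Prrx1 were not called. Macrophages express Zeb2 as well, and its brightest probe does not tell cell types apart. Of the laminin-332 and hemidesmosome genes, by which epithelial cells hold to basement membrane, 2 of 7 kept were lower (6.55% of all named genes were) and 0 higher. Itga3, the integrin alpha 3 chain, lay at 8.20, 7.98, 7.15, 7.20 and 7.65 in recurrences 1 to 5 and at 9.86 and 9.92 in SCC-7 cells, a log2 difference of -2.25 (standard error 0.31, adjusted p = 0.0014). Cd151, the tetraspanin that associates with this integrin, differed by -1.18. Every recurrence lay below both SCC-7 arrays for both genes, as for all 642 genes called lower. When either SCC-7 array was left out, 1 gene of the list was called lower.

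Cell cycle genes were higher in recurrent tumors than in the cultured line. Of 22 listed mitosis genes, 15 were kept and all 15 were called higher, against 11.6% of all named genes, with a median log2 difference of 1.82. The mean of the list was 9.66, 9.47, 9.51, 10.09 and 10.00 in recurrences 1 to 5 and 7.88 and 7.94 in SCC-7 cells. Prc1, which bundles microtubules of the central spindle, lay at 12.09, 12.21, 11.93, 12.27 and 12.27 against 9.70 and 9.68, a log2 difference of 2.46 (standard error 0.16, adjusted p = 3.2e-05). Kif11, a spindle motor, was at least 4.00-fold higher, and Nusap1 and Top2a, which encodes topoisomerase II alpha, differed by 2.45 and 1.99. The tumors exceeded the line in each of these genes without overlap, as in 1141 of all 1142 genes called higher. Recurrences 4 and 5 tended to be the highest. Of 22 kept DNA replication genes, 14 were called higher, against 11.6% of all named genes, and 0 lower. Mcm5, a subunit of the replicative helicase, lay at 11.38, 11.07, 11.27, 11.65 and 11.82 against 9.34 and 9.35. Lig1, Uhrf1 and Gins1 differed by 1.99, 1.86 and 1.74. Without the first or second SCC-7 array, 11 mitosis genes and 10 or 11 replication genes were called. With median scaling the counts were 15 and 18, and with scaling of the kept probes 15 and 15. With the dimmest kept probe of each gene in place of the brightest they were 13 and 10.

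The promoters of mitosis genes are shown because these genes moved together. CCAAT is the box that the factor NF-Y binds. Of the 15 called mitosis genes, 12 had a promoter in the RefSeq table (GRCm38.p6), from 250 bases before the start of the gene to 50 after it, and 9 of the 12 held CCAAT on either strand. Of all 27025 genes in the table, 41.1% did. Top2a (chr11:99024140-99024439, minus strand) and Cdk1 (chr10:69352863-69353162, minus strand), which encodes the kinase that starts mitosis and was higher by a log2 difference of 1.61, held 6 and 3 matches. In the sequences below, 5′ to 3′ on the strand of the gene, capitals mark CCAAT or its complement ATTGG. A match is a description of letters, and binding was not measured.
Top2a: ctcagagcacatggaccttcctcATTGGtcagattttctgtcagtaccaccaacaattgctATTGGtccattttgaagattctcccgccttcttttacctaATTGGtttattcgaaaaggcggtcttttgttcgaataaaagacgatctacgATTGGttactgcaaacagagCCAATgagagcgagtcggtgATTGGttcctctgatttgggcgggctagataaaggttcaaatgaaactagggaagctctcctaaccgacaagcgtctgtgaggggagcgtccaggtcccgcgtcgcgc
Cdk1: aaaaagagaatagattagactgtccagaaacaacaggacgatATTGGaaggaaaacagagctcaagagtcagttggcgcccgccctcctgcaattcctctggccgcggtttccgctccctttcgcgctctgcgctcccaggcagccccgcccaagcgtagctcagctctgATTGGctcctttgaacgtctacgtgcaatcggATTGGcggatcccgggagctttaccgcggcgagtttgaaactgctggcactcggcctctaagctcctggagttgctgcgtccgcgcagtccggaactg

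Stress response was read from targets of the factors ATF4 and NRF2, and some of them were higher in the cultured line. Of 16 kept genes of the amino acid response, which ATF4 controls, 4 were called lower in recurrent tumors, 0 higher and 12 were not called, where 6.55% of all named genes were lower. Trib3, a pseudokinase that ATF4 induces, lay at 10.41, 10.22, 9.92, 10.37 and 10.21 in recurrences 1 to 5 and at 12.79 and 12.64 in SCC-7 cells, a log2 difference of -2.49 (standard error 0.18, adjusted p = 5.4e-05). Ddit3, the factor CHOP, differed by -2.03, Sesn2 by -1.34 and Chac1, which degrades glutathione, by -1.25. Atf4 itself differed by -0.72 (adjusted p = 0.012), short of 2-fold. The biosynthetic members did not follow: Asns, Psat1 and Phgdh differed by -0.07, 0.29 and -0.18. Of 11 kept NRF2 target genes, 2 were lower, 2 higher and 7 not called. Among all named genes 6.55% were lower and 11.6% higher, so the higher count was near the background. Nqo1, a quinone reductase, lay at 6.33, 6.67, 6.09, 6.25 and 6.75 against 10.01 and 10.16, a log2 difference of -3.67 (standard error 0.22, adjusted p = 1.8e-05), and Aldh3a1 at -4.76 was the other. Hmox1, haem oxygenase 1, was higher by 2.36, and Gpx2, a glutathione peroxidase, was at least 1.11-fold higher. The tumors also held haemoglobin and macrophage transcripts, whose part in the level of Hmox1 was not tested. When either SCC-7 array was left out, 2 ATF4 genes and 1 NRF2 gene were called lower and 0 NRF2 genes were called higher. Without recurrence 2, 4 or 5, 1 NRF2 gene was called higher. Gsta4, a glutathione transferase, lay at 8.74, 8.56, 8.49, 5.43 and 5.49 against 9.76 and 9.85. Its log2 difference of -2.46 was not called (adjusted p = 0.097). Recurrences 1 to 3 were closer to the line than recurrences 4 and 5.

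Immediate early genes went both ways. Ier3, a survival gene that serum and NF-kB induce, lay at 9.31, 8.17, 8.86, 10.32 and 10.96 in recurrences 1 to 5 and at 13.78 and 13.68 in SCC-7 cells, a log2 difference of -4.21 (standard error 0.67, adjusted p = 0.0031). Klf2, a factor of endothelium and resting leukocytes, was higher by 3.36, and Fos and Atf3 were at least 3.95-fold and 1.29-fold higher. Of 12 kept genes of the list, 4 were higher and 1 lower, beside 11.6% and 6.55% of all named genes. The higher count was 2 without the first SCC-7 array and 2 without recurrence 4, and 2 genes were lower without recurrence 2. Egr1 and Jun were not called. Among p53 target genes, 2 of 10 kept were higher and 1 lower: Fas, the death receptor, and Sesn1 by 1.98 and 1.60, and Bbc3, which encodes PUMA, by -1.02. These counts are near the shares of 11.6% and 6.55% over all named genes. With either SCC-7 array left out, 1 p53 target was higher and 0 were lower, and Bbc3 was also not called without recurrence 3 or 5. Of 15 kept genes of glycolysis and hypoxia, 3 were lower and 1 higher, beside 6.55% and 11.6% of all named genes. Beside Vegfa, the oxygen sensor Egln3 and Ndrg1 differed by -1.55 and -1.54, and the glucose carrier Slc2a3 was at least 2.21-fold higher. The list was not even over the tumors, at 9.14, 9.14, 8.67, 9.84 and 10.06 in recurrences 1 to 5 against 9.63 and 9.60. Slc2a1, the main glucose carrier, lay at 9.20, 9.09, 8.27, 10.36 and 10.31 against 10.51 and 10.51, so recurrences 4 and 5 were at the level of the line and the others below it. Without either SCC-7 array, 0 genes of the list were called lower.

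**Figure D3:**
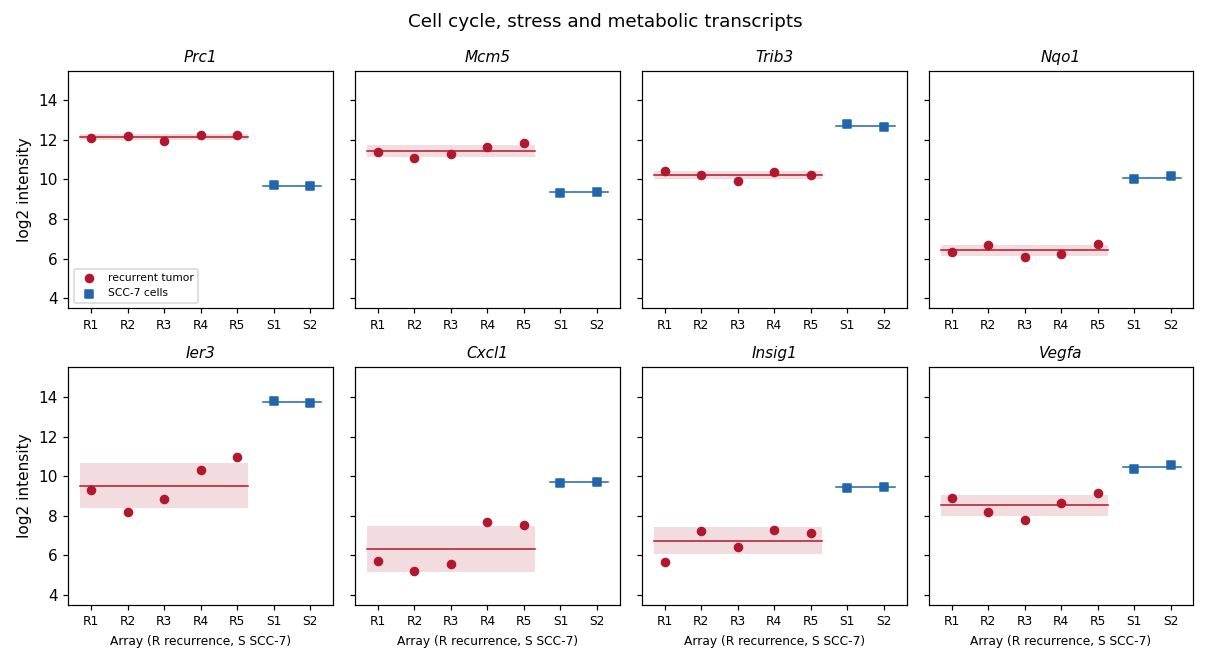
Log2 intensity (vertical axis) of 8 genes on each array (horizontal axis), with recurrent tumors as circles, SCC-7 cells as squares, lines at the group means and a band of 1 standard deviation over the 5 recurrences. Prc1 and Mcm5 are higher in every tumor, and Trib3, Nqo1, Ier3, Cxcl1, Insig1 and Vegfa are lower in every tumor than on both SCC-7 arrays.

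Of 11 kept genes of cholesterol synthesis and uptake, 3 were called lower in recurrent tumors, against 6.55% of all named genes, 0 higher and 8 were not called. The median log2 difference was -1.62. The list mean was 6.92, 7.003, 7.10, 8.53 and 8.44 in recurrences 1 to 5 and 8.97 and 8.94 in SCC-7 cells. Insig1, which holds back the SREBP factors when sterol is ample, lay at 5.68, 7.24, 6.41, 7.25 and 7.11 against 9.39 and 9.47, a log2 difference of -2.69 (standard error 0.42, adjusted p = 0.003). The enzymes Cyp51 and Lss differed by -1.84 and -1.70. Sqle, squalene epoxidase, lay at 8.94, 9.03, 9.18, 10.98 and 11.22 against 11.82 and 11.80. Its difference of -1.94 was not called (adjusted p = 0.06), nor was that of Fdps, which lay at 9.13, 10.05, 9.91, 12.17 and 12.02 against 12.32 and 12.27. For Sqle and Fdps the distance from the line was larger in recurrences 1 to 3 than in 4 and 5, whereas Insig1 was more than 2 log2 units below the line in every recurrence and recurrence 2 was level with 4 and 5. Mvk was not well above background in SCC-7 cells and was not called. The count of lower genes was 6 without recurrence 4 or 5, 2 without any other recurrence, 1 without either SCC-7 array, 5 with scaling of the kept probes and 7 with array weights.

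Interferon-stimulated genes divided the recurrences in the opposite sense. The list averaged 9.71, 9.38, 9.55, 8.15 and 7.98 in recurrences 1 to 5 and 7.92 and 7.98 in SCC-7 cells, so that recurrences 1 to 3 lay above the line and 4 and 5 beside it. Of 17 kept genes, 3 were called higher and 0 lower, against 11.6% of all named genes. Rsad2, the antiviral protein viperin, lay at 10.44, 10.35, 10.32, 8.45 and 8.61 against 5.95 and 6.18, a log2 difference of 3.57 (standard error 0.61, adjusted p = 0.0042). Oasl1 was at least 4.52-fold higher, and Ifit2 differed by 2.22. Irf7, the factor that amplifies the response, lay at 9.42, 8.61, 9.28, 6.96 and 6.78 against 6.21 and 6.18, and Usp18, its brake, at 10.64, 10.01, 10.26, 8.05 and 7.75 against 7.42 and 7.28. Neither was called, with adjusted p-values of 0.073 and 0.089. Other members were as high in the line as in the tumors: Isg15, a ubiquitin-like protein, lay at 9.95 and 9.88 in SCC-7 cells and at 8.46 to 10.82 in the recurrences. Without the first or second SCC-7 array, 0 or 2 genes of the list were called. Leaving out recurrence 4 or 5 gave 5, and array weights gave 7.

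GAAA, any 2 bases and GAAA again is the core of the interferon-stimulated response element. Of the 17 kept genes of the list, 12 had a promoter in the same RefSeq table and 7 of them held the motif on either strand, against 3.99% of all genes. Of the 3 called genes, 1 held it. The promoters of Rsad2 (chr12:26456403-26456702, minus strand), which rose, and of Isg15 (chr4:156200769-156201068, minus strand), which was not called, are shown 5′ to 3′ on the strand of the gene, because both hold the motif and the genes differed in their level in the line. Capitals mark the motif or its complement, TTTC, any 2 bases and TTTC. In Isg15 there were 3 matches that overlap.
Rsad2: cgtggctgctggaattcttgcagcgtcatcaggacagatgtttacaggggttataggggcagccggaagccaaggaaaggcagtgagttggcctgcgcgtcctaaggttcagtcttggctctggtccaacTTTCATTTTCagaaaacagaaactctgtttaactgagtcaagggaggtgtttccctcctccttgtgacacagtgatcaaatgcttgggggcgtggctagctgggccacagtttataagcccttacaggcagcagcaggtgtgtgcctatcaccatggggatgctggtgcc
Isg15: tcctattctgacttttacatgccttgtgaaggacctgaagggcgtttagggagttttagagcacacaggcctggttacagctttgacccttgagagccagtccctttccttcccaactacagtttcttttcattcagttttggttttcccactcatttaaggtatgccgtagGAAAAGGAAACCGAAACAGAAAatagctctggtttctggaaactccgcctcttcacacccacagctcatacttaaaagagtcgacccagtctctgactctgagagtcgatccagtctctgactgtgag

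Salivary gland genes had the widest range of all over the recurrences. The mean of the list, 16 kept genes, was 5.26 in recurrence 1, 11.71, 12.33, 10.13 and 10.97 in recurrences 2 to 5, and 6.59 and 6.63 in SCC-7 cells. Recurrence 1 had the lowest level of the 5 for 15 of the 16 genes and recurrence 3 the highest for 12. Outside the list, A2ml1, a protease inhibitor of the alpha-2-macroglobulin type, had the widest range of any named gene, 10.2 log2 units, and lay at 4.36, 14.41, 14.57, 12.87 and 12.25 in recurrences 1 to 5 and at 7.64 and 7.57 in SCC-7 cells. Bpifa2 lay at 5.33, 14.79, 14.20, 14.88 and 14.79 against 11.14 and 11.23, and Dcpp1, a secreted protein of the sublingual gland, at 5.15, 14.31, 14.51, 13.84 and 13.48 against 9.86 and 9.89. The line thus lay between recurrence 1 and the others. The 10 genes with the widest range were A2ml1, Smr3a, Wfdc12, Mup5, Amy2a5, Bpifa2, 2310057J18Rik, Dcpp1, Chia1 and Klk1b27, each lowest in recurrence 1, and none was called. Without recurrence 1, 13 genes of the salivary list were called higher, where 0 were with all arrays. The log2 differences of A2ml1, Bpifa2 and Dcpp1 were then 5.92, 3.48 and 4.16 (adjusted p = 0.0012, 0.00014 and 0.00019). Recurrence 1 was singled out for its low level of these same genes, so these counts and p-values are not an independent test. Kallikreins such as Klk1b27 and the Dcpp genes have close paralogs that their probes may also read. Aqp5, the water channel of serous acini, was the only member called with all arrays and it was lower: it lay at 9.20, 10.26, 11.62, 7.83 and 9.46 against 13.24 and 13.22, a log2 difference of -3.56 (standard error 0.83, adjusted p = 0.015). Its level on the SCC-7 arrays exceeded that in every recurrence, unlike the rest of the list. Without either SCC-7 array it missed the threshold.

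Transcripts of muscle, fat and nerve were unequal among the tumors. Of 13 kept skeletal muscle genes, 0 were called by limma, 1 had an unadjusted p under 0.05, 0 were called by the methods' t-test and 4 were called higher with array weights. The list stood at 5.57, 6.29, 5.46, 7.31 and 8.25 in recurrences 1 to 5 against 5.39 and 5.37. Acta1, skeletal actin, lay at 4.87, 8.16, 5.28, 9.85 and 10.84 against 5.75 and 5.11. All 13 genes were detected in recurrences 4 and 5, 11 in recurrence 2, 5 and 6 in recurrences 1 and 3, and 4 on each SCC-7 array. Tnni2, a troponin of fast muscle, was an exception, at 8.03 to 10.17 in the recurrences and 9.19 and 9.12 in SCC-7 cells. Fat cell genes were highest in recurrence 2: the mean of the 7 kept genes was 5.95, 7.61, 6.32, 5.48 and 5.62 against 4.79 and 4.81. Lpl, lipoprotein lipase, which macrophages also express, was at least 12.9-fold higher over all recurrences and Pparg at least 2.55-fold, whereas Adipoq, adiponectin, was above 7 only in recurrence 2, at 7.49. Of the Schwann cell genes, Mbp, a myelin protein, was at least 2.53-fold higher. Sox10, a factor of Schwann cells and also of salivary acini, lay at 4.46, 7.17, 8.75, 4.90 and 5.72 against 4.48 and 4.55, in an order close to that of the salivary list.

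**Figure D4:**
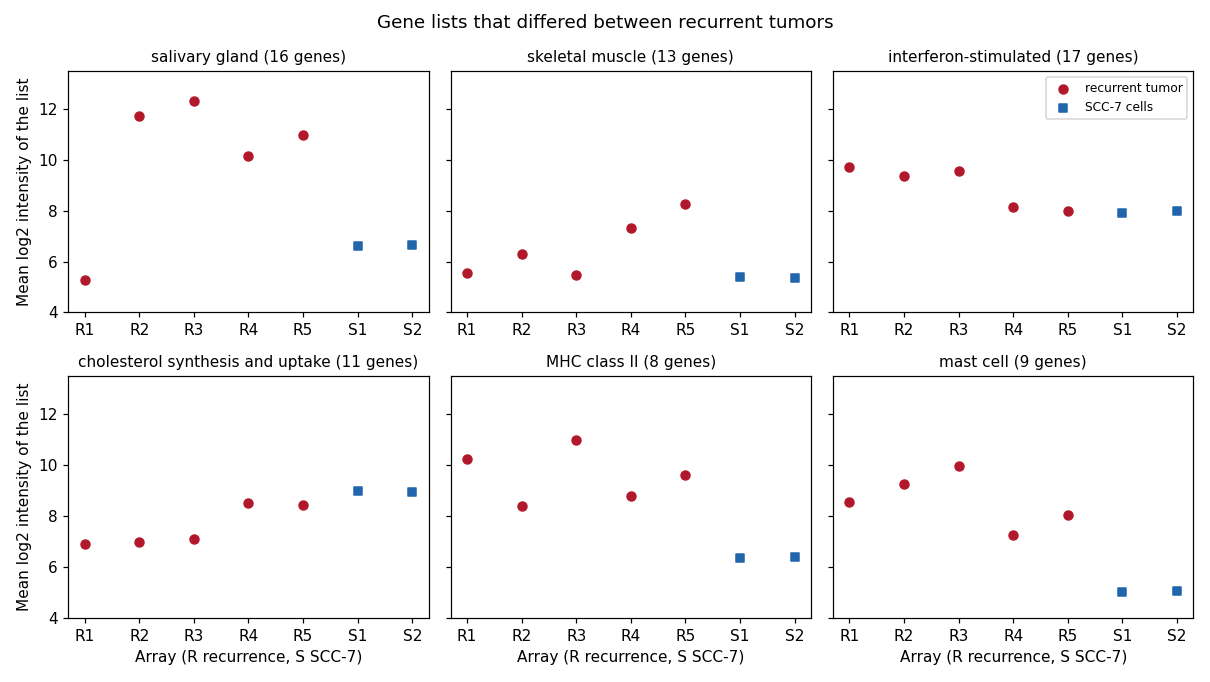
Mean log2 intensity (vertical axis) of 6 gene lists on each array (horizontal axis), with recurrent tumors as circles and SCC-7 cells as squares. Among the recurrences, number 1 is lowest for salivary gland, 4 and 5 are highest for skeletal muscle and cholesterol synthesis, and 1 to 3 are highest for interferon-stimulated genes. For cholesterol synthesis both SCC-7 arrays lie above every recurrence.

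Among genes of oxidative phosphorylation and of ribosome biogenesis, 1 was called. Of 18 kept genes of oxidative phosphorylation, 0 were called by limma or by the methods' t-test and 0 had an unadjusted p under 0.05. The median log2 difference was 0.0032, with list means of 11.26 to 11.52 in the recurrences and 11.42 and 11.43 in SCC-7 cells. Atp5b and Atp5o, subunits of ATP synthase, differed by 0.14 and 0.0033, and both signs turned with scaling of the kept probes. Of 16 kept genes of ribosome biogenesis, 9 had an unadjusted p under 0.05 and 1 was called: Nop58, a core protein of box C/D ribonucleoproteins, higher by 1.27. It was not called without either SCC-7 array. Ppan, Pes1, Nop14 and Polr1b, a subunit of RNA polymerase I, were lower by less than 2-fold, with log2 differences of -0.73, -0.87, -0.62 and -0.70 (adjusted p = 0.014, 0.039, 0.027 and 0.036). Nop2 was lower by -0.51 (adjusted p = 0.034). Npm1 and Pno1 went the other way, higher by 0.78 and 0.64 (adjusted p = 0.018 and 0.038). Mybbp1a, a nucleolar co-regulator of transcription that the study went on to examine, was read by 4 kept probes. The brightest lay at 10.64, 7.44, 8.58, 7.75 and 6.38 in recurrences 1 to 5 and at 10.86 and 11.01 in SCC-7 cells, a log2 difference of -2.78 (standard error 0.95, adjusted p = 0.055). On this probe recurrence 1 was close to the line, and without it the difference was -3.41 (adjusted p = 0.0046). Recurrence 1 was set aside there after its level was seen, so that p-value is not an independent test. The other 3 probes gave -0.996, -0.88 and -1.09 (adjusted p = 0.0051, 0.014 and 0.011), of which the last passed 2-fold. On these 3 probes recurrence 1 was not close to the line. It lay at 7.74 against 8.63 and 8.66, at 6.93 against 7.64 and 7.55, and at 6.41 against 7.49 and 7.22. Each of the 4 probes was lower in every recurrence than on both SCC-7 arrays. Of all 9803 named genes, 5580 had no overlap between the groups in 1 direction or the other. Hprt, a gene often used as a reference, was not at an equal level: its brightest probe lay at 11.22, 11.51, 11.79, 11.18 and 11.59 against 10.02 and 10.01, a log2 difference of 1.44 (standard error 0.21, adjusted p = 0.0018), and its other 2 probes gave 0.97 and 0.83.

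**Figure D5:**
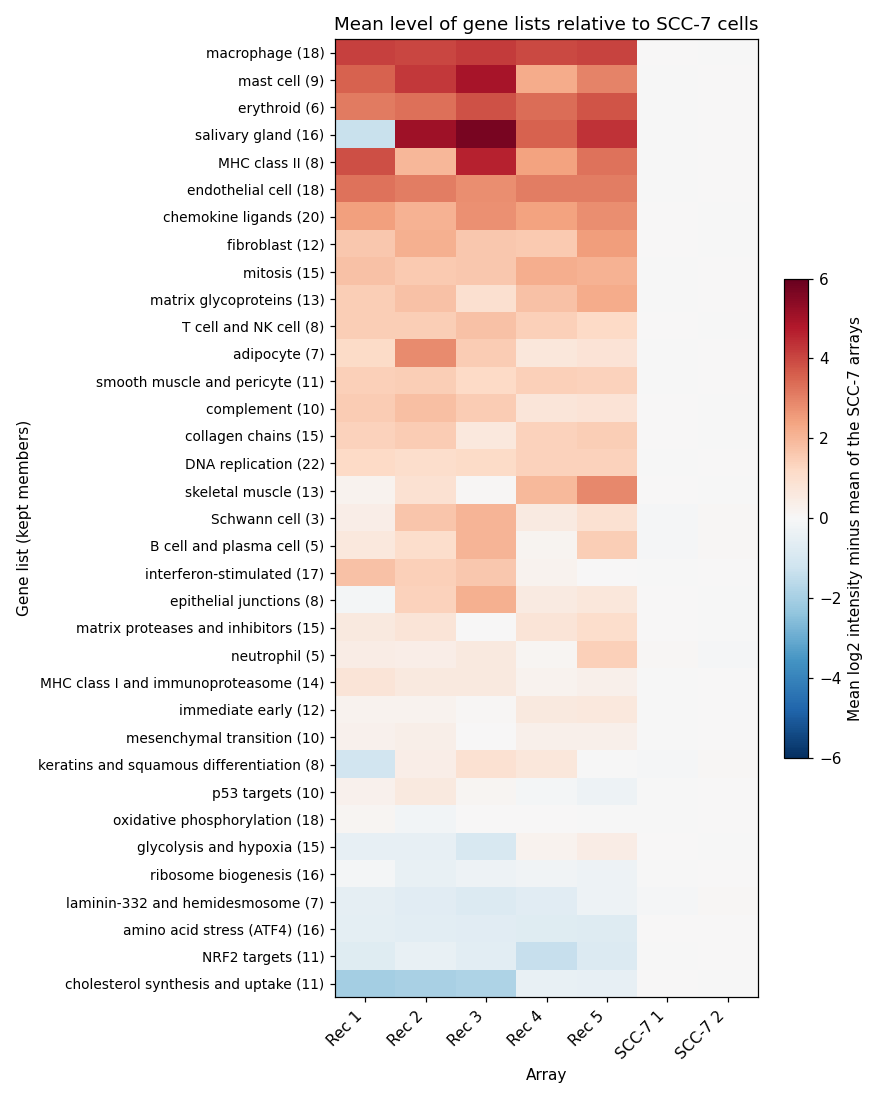
Mean log2 intensity of each of 35 gene lists on each array, minus the mean of both SCC-7 arrays, in color (red higher, blue lower), with arrays as columns and lists as rows in the order of the mean difference. Macrophage, erythroid and endothelial rows are evenly red, the salivary row is red in recurrences 2 to 5 and blue in recurrence 1, and the lowest row is cholesterol synthesis.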

How the data were processed

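Total RNA of 5 recurrent tumors and 2 samples of SCC-7 cells was profiled, 1 Illumina mouse WG-6 v2 array per sample. The values used were the deposited non-normalized bead intensities, 1 per probe and array, which the authors exported without normalization. A table of normalized intensities deposited by the authors, whose normalization method is not given in the sources used here, served as an alternative. The number of arrays limits the precision.

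The 7 arrays were background corrected with normexp on the 943 negative controls (11 bright controls were left out) with an offset of 16 and quantile normalized. A probe was detected where it exceeded the negative controls at a one-sided p under 0.01, and kept where detected on at least 2 arrays. Differences were tested with limma 3.58.1 (R 4.3.3, lmFit and eBayes) with Benjamini-Hochberg adjustment over all kept probes. Called means a difference of 2-fold or over with an adjusted p under 0.05. A probe not well above background on any array of a group has only a bound, "at least N-fold". A gene was read from its kept probe with the highest mean. Symbols came from the platform annotation, updated by Entrez ID: 34773 probes had 1 symbol, 18 several and 10344 none. Of 591 listed genes 422 were kept. The scripts were tested on simulated data.

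Named genes were the 15 called genes with the largest difference in each direction that were detected on every array of the brighter group without overlap between groups, up to 4 called members of each list with the largest difference (the 2 brightest kept members where 0 were called), the 10 genes with the widest range among recurrences, and Mybbp1a, Cdh1, Vsig4 and Hprt. Other list members were named after their values were seen. The groups and the 35 gene lists were chosen with earlier results of these data known. Alternatives were other background corrections, scalings, filters, thresholds, probe choices, variance models and the methods' t-test, the fit with all 12 arrays, a replicate block and leaving out each array.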

Additional observations from a re-analysis of the deposited data

Results flagged for a closer look

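In 6 of the values below, 1 of the 5 recurrences lay far from the other 4, by the gap to its nearest neighbor as a share of the range of the group. Chance alone gives such a value in about 1 in 20 groups, and 35 lists and 33 genes were searched. The mean of the collagen chain list was 8.05 in recurrence 3 and at least 8.77 in the others, and the mean of the mesenchymal transition list was 9.503 in recurrence 3 and at least 9.772 in the others. Aldh3a1 lay at 7.42 in recurrence 4, with the next recurrence at 10.27. Prl2c3 and Prl2c4, close paralogs, lay at 9.34 and 8.87 in recurrence 5, with the next recurrences at 6.91 and 6.304. Cdh26 lay at 7.46 in recurrence 2, with the next recurrence at 8.43.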

How the results depend on the processing

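Of 1692 probes called higher and 1206 called lower, 0 turned sign as calls under any alternative run. Without background correction 1110 probes were higher and 556 lower, with an offset of 50 the lower count was 655, with median scaling 536 and with the authors' normalized values 513. Without a fold threshold 3088 probes were lower, and at 4-fold 767 were higher and 118 lower. Leaving out 1 array gave 972 to 1767 probes higher, 338 to 1316 lower and 113 to 195 called list members (184 with all arrays), with the lowest counts when an SCC-7 array was left out. Median scaling of the kept probes, chosen after seeing the data, gave 1461 higher and 1550 lower. The methods' t-test gave 1666 higher and 1194 lower unadjusted and 1354 and 929 after Benjamini-Hochberg adjustment. The replicate numbers of recurrences and SCC-7 samples are only names: deviations of same-numbered samples correlated at -0.0108 and 0.0128. A replicate block gave 1715 higher and 1094 lower probes and 203 list members. It gave 10 cholesterol genes lower (3 without the block) and 11 interferon-stimulated genes higher (3 without it). Under the block, a recurrence with no same-numbered SCC-7 sample adds nothing to the difference. The difference then rests on recurrences 1 and 2 alone, so the block is not an alternative over all arrays. Of 3126 gene values computed, 2885 kept direction and side of the threshold, 188 lost their call, 39 gained one and 14 turned sign. Turned values were those of Atp5o (-0.019 with median scaling, -0.38 with scaling of the kept probes, -0.033 with the replicate block, and -0.058 to 0.062 when 1 array was left out), Tnni2 (0.11 with median scaling, 0.20 with the block, and -0.36 to 0.17 when 1 array was left out), Atp5b (-0.33) and H2-D1 (-0.22) with scaling of the kept probes, and Bpifa2 (-1.13) and Dcpp1 (-0.14) with the replicate block. The mean of the oxidative phosphorylation list turned to 0.053 with median scaling. The causes were not tested. With 2 SCC-7 samples, the spread within that group rests on 1 pair, and genes near background in culture have a bound in place of a fold.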
